A study of Arabidopsis thaliana with 8 samples.

Results

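HIS1-3 (locus AT2G18050) is a linker histone gene of Arabidopsis thaliana. It was 1 gene of the 13356 with a single-gene probe set on the array, and 1 probe set measured it. The gene was chosen by its high values in hira roots against wild-type (WT) roots, seen in earlier results of these same arrays. Differences that use the root arrays are therefore given as a description, with no test. Only the difference between hira and WT protoplasts, whose 4 arrays took no part in that contrast, was tested. The spread used in that test was estimated from all 8 arrays, the root arrays included.

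Linker histones of the H1 type bind the nucleosome where DNA enters and leaves it and favour compact chromatin. HIS1-3 is the stress-inducible variant of the family in Arabidopsis, known to be induced by drought and abscisic acid, the hormone of water deficit. HIRA is a chaperone that deposits the histone variant H3.3 outside DNA replication.

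The series asks how loss of hira affects the dedifferentiation that protoplasting brings about. The groups were hira protoplasts, WT protoplasts, hira roots and WT roots, with 2 Affymetrix arrays of total RNA each. Protoplasts are cells freed from their walls by enzymes, here from root tissue. All plants came from seed kept at 4 °C for 4 days and grown on upright MS plates. Enzyme digestion is entered as the treatment of the root samples too, so whether roots also met the enzymes is unclear from the labels. The labels give no hira allele, plant age or digestion time, and no source of the replicates, so the spread between the arrays of a group may be technical.

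Values are log2 values centred on the median of each probe set over the 8 arrays. A positive value means above the median array and says nothing of how abundant the transcript is. In bulk RNA, more cells with the transcript and more transcript per cell cannot be told apart.

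HIS1-3 stood highest in hira roots, next in hira protoplasts, then in WT protoplasts and lowest in WT roots. Its values were 0.77 and 0.26 in hira protoplasts, against -0.26 and -1.22 in WT protoplasts. They were 1.13 and 2.70 in hira roots, against -2.38 and -3.09 in WT roots. No array of any group overlapped with an array of another, and every hira array lay above every WT array. Such separation of the genotypes in this direction was seen for 592 probe sets, 2.6% of the 22746 tested.

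**Figure D1:**
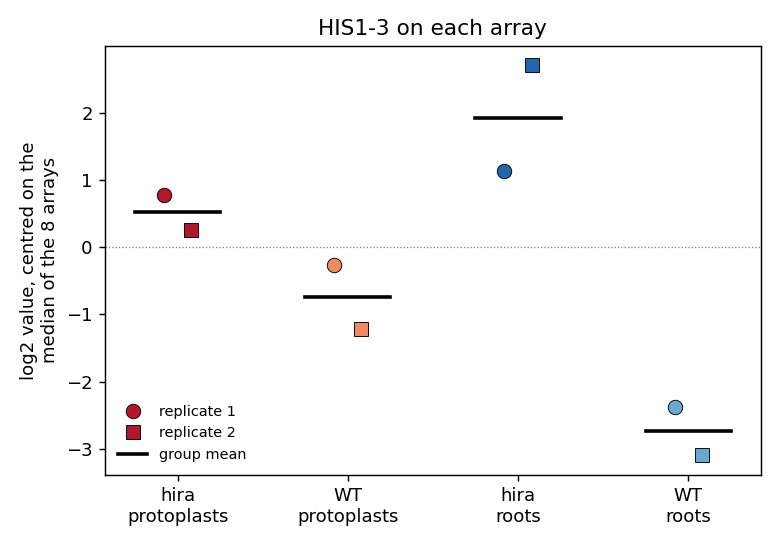
HIS1-3 on each of the 8 arrays, as log2 values centred on the median array (y axis), by group (x axis). Points are arrays and black lines are group means; hira roots were spread most, from 1.13 to 2.70, and the WT roots lay lowest.

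HIS1-3 averaged 0.52 ± 0.36 in hira protoplasts, against -0.74 ± 0.68 in the WT ones (SD, n = 2 each). In roots the means were 1.92 ± 1.11 in hira, against -2.74 ± 0.50 in WT (SD, n = 2 each). The hira root replicates differed most, and replicate 2 held the highest HIS1-3 value of all. Hira protoplasts and hira roots, the highest neighbours in this order, differed by -1.40, little more than the SD of 1.11 in hira roots. The pooled SD of HIS1-3 within groups was 0.72, against a median of 0.23 over all probe sets and of 0.53 over the 4506 probe sets whose SD over the 8 arrays was at least 1. Replicates of this gene thus spread more widely than those of most probe sets.

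In roots the hira minus WT difference of HIS1-3 was 4.65 on the log2 scale, a 25.1-fold difference. Between single arrays it ran from 3.51 to 5.79. It ranked 24th from the highest among 22746 probe sets, of which 23.5% had both hira root arrays above both WT root arrays. Without hira root replicate 2 the difference was 3.87, and without hira root replicate 1 it was 5.44.

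In protoplasts the hira minus WT difference was 1.26 (SE 0.66, 95% interval -0.48 to 2.99), a 2.39-fold difference. It did not pass the test (limma, Benjamini-Hochberg adjusted p = 0.264). Over 14 alternative settings the adjusted p ran from 0.189 to 0.589. Both hira arrays lay above both WT arrays, as they did for 24.3% of probe sets, and 8.29% of probe sets passed the test in this comparison. The interval holds both no difference and a difference of several-fold, so these arrays do not settle whether the genotypes differ in protoplasts.

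Averaged over roots and protoplasts, HIS1-3 stood 2.95 higher in hira than in WT, the 8th highest of all probe sets. Most of this mean came from the roots. The plot of genotype differences sets the gene beside the histone and water deficit lists.

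**Figure D2:**
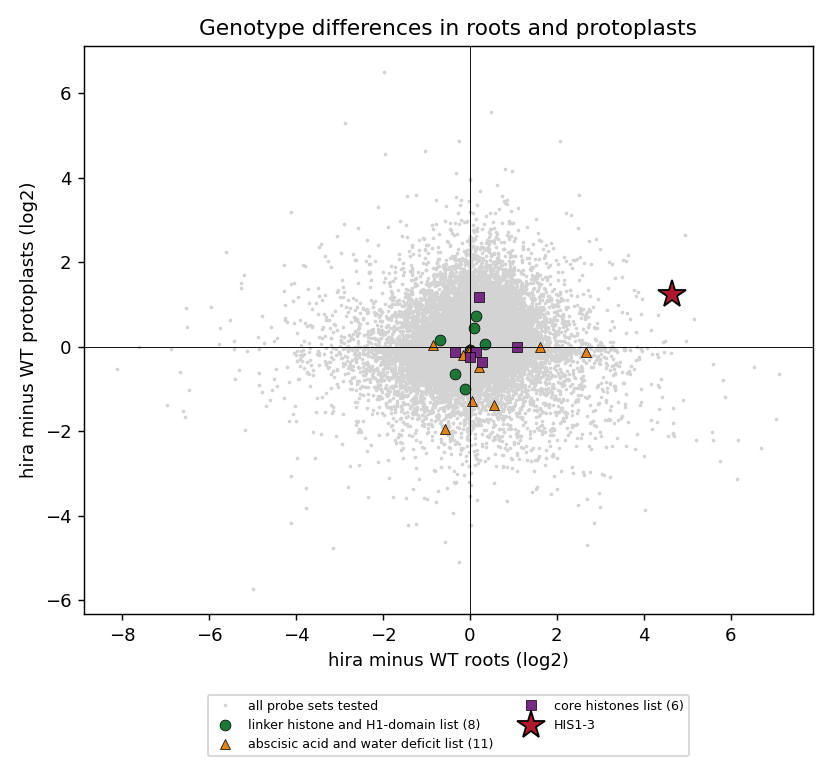
Hira minus WT difference in roots (x axis, log2) and in protoplasts (y axis, log2) for all 22746 probe sets (grey) and for members of 3 gene lists. HIS1-3 (star) lay at 4.65 and 1.26, to the right of every member of the 3 lists, of which COR47 came nearest in roots at 2.67.

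The protoplast minus root difference of HIS1-3 had opposite signs in the genotypes. It was -1.40 in hira, between -2.44 and -0.36 for single arrays, against 1.99 in WT, between 1.16 and 2.83. Averaged over the genotypes these nearly cancelled, to 0.30. The hira minus WT difference of these responses was -3.39. Without hira root replicate 2 the response in hira was -0.61, and without replicate 1 it was -2.19.

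Direction alone does not set HIS1-3 apart here. Of all probe sets, 53.5% had both protoplast arrays below both root arrays in hira, 50.1% had them above in WT, and 24.7% showed both at once. The reverse, below in WT and above in hira, was seen for 3.1%. With mean differences of at least 1 in both genotypes, 137 probe sets or 0.602% did so, HIS1-3 among them.

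The full order of the 4 groups, with no overlap of arrays between neighbours, was shared by 45 probe sets, 0.198% of those tested. This order was looked for after the values of HIS1-3 were seen. By the range over the 8 arrays HIS1-3, at 5.79, ranked 2nd among them. Above it was the locus AT1G14220 with a range of 7.10, and next below a probe set without a single gene, with 5.34. Of the 45 probe sets, 4 belonged to genes with a symbol: HIS1-3, the GDP-fucose synthesis gene GER2 with a range of 2.75, the cellulose synthase-like gene CSLC5 with 1.82, and the exon junction gene Y14 with 0.43.

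RNA controls also differed between the groups. On these arrays the 5′ minus 3′ gap of a control transcript falls as RNA is degraded or copied less far. The control probe sets are centred like all others. A gap therefore compares arrays with one another and does not show how intact the RNA of an array was. For GAPDH the gap was -0.09 and -0.10 in hira protoplasts, against 0.48 and 0.75 in WT protoplasts. In roots it was -0.05 and 0.12 in hira, against -2.24 and -2.19 in WT. The actin gap was 0.22 and 0.30 in hira protoplasts, against 1.75 and 1.30 in WT protoplasts. In roots the actin gap was -0.35 and -0.16 in hira, against -2.14 and -1.48 in WT. The WT root arrays, lowest for HIS1-3, thus had the lowest gaps, and the WT protoplast arrays had the highest. The part of RNA quality in the HIS1-3 differences was not tested.

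**Figure D3:**
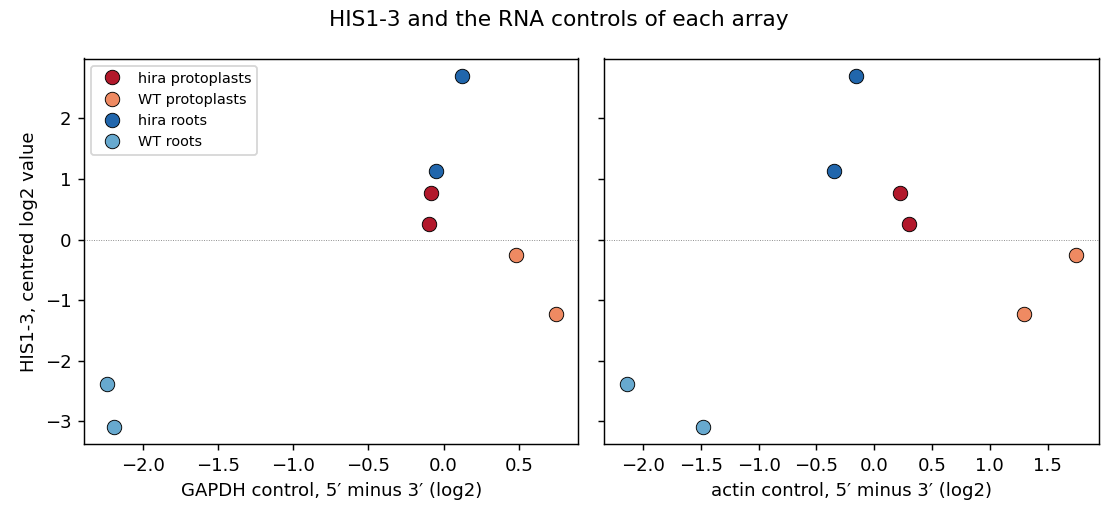
HIS1-3 (y axis, centred log2 value) against the control gap, 5′ minus 3′, for GAPDH (left) and actin (right) (x axes, log2), 1 point per array, coloured by group. WT roots lay at gaps of -2.24 to -1.48, where HIS1-3 was lowest, and the hira arrays lay between -0.35 and 0.30. WT protoplasts had the highest gaps, from 0.48 to 1.75. Gaps are differences of centred values and give no absolute level.

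Over all probe sets, replicates differed with an SD of 0.31 in hira protoplasts, against 0.61 in WT protoplasts, and of 0.61 in hira roots, against 0.74 in WT roots. Of 33 root cell type and green tissue markers, 6 had a single-gene probe set, and centred values cannot show whether a marker is present. The mean of the root hair genes EXPA7 and EXPA18 was -1.40 and -2.21 in hira protoplasts, against -0.09 and 1.63 in WT protoplasts. It was 1.99 and 1.58 in hira roots, against 0.09 and -1.66 in WT roots. The mean of these 2 genes, like that of HIS1-3, was highest in hira roots. Of the other 4 measured markers, the vascular gene LHW and AT1G62500 were also highest on average in hira roots, while BBM and RCA were not. The hira and WT root values of LHW overlapped. The stem cell niche gene BBM had 0.57 and -0.10 in hira roots, against 1.57 and 2.02 in WT roots. The vascular gene LHW had 0.59 and 0.48 in hira roots, against 0.51 and 0.30 in WT roots. The photosynthesis gene RCA had -3.01 and 0.62 in hira roots, against 0.15 and 0.00 in WT roots, and AT1G62500 stayed within 0.16 of the median array throughout. The part of cell type composition in the HIS1-3 differences was not tested.

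The rest of the linker histone list showed no root difference of the size of HIS1-3. This list and those below were chosen with earlier results of these data known, so their counts are a description. The list held 15 loci, and 8 others were measured: the H1-domain gene HON4 and 7 loci without a name in the annotation used. Their hira minus WT differences in roots ran from -0.69 to 0.35, with a median near 0, against 4.65 for HIS1-3. None of the 8 passed in hira against WT roots by limma, where 9.19% of all probe sets passed. In hira protoplasts against hira roots 0 of the 8 passed as well, with a background of 24.2%. In WT protoplasts against WT roots 1 passed, with a background of 25.6%. Between hira and WT protoplasts 1 of the 8 passed, with a background of 8.29%.

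The loci AT1G06760 and AT2G30620 were entered in the list as the linker histones proper besides HIS1-3. AT1G06760 had 0.03 and 0.11 in hira protoplasts, against 0.41 and 1.04 in WT protoplasts, a difference of -0.66 (SE 0.22, adjusted p = 0.131, limma). In roots it had -0.52 and -0.30 in hira, against -0.12 and -0.03 in WT, a difference of -0.33 (SE 0.22, adjusted p = 0.457, limma). Both differences were opposite in sign to those of HIS1-3, and neither passed.

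AT2G30620 had 0.39 and 0.32 in hira protoplasts, against -0.78 and 0.04 in WT protoplasts, a difference of 0.73 (SE 0.27, adjusted p = 0.159, limma). In roots it had 0.11 and -0.04 in hira, against -0.08 and -0.13 in WT, a difference of 0.14 (SE 0.27, adjusted p = 0.965, limma). Neither locus varied over the arrays as HIS1-3 did, with SDs over the 8 arrays of 0.48 and 0.36, against 1.91.

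Among the other members, AT1G72740 was higher in hira than in WT protoplasts by 0.45 (SE 0.07, adjusted p = 0.0373, limma), a call lost in 11 of 13 alternatives that gave a value. AT1G17520 rose in WT protoplasts against WT roots by 2.59 (SE 0.57, adjusted p = 0.0336, limma), a call lost in 9 of 14 alternatives, and its value in hira was 1.71 (adjusted p = 0.0998). HON4 differed by 0.35 between hira and WT roots and by 0.07 in protoplasts, and passed in neither. AT1G54260 had the largest negative root difference, -0.69 (adjusted p = 0.0878, limma). AT1G54230 and AT1G54240 differed by less than 0.1 in each of the 4 comparisons. Pearson r with HIS1-3 over the 8 arrays ran from -0.77 for AT1G54260 to 0.71 for HON4.

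Core histones, which form the nucleosome itself, gave 6 measured genes, so 1 gene is a large share of the list. In hira against WT roots 1 of 6 was higher, the centromeric H3 gene HTR12 at 1.09 (SE 0.21, adjusted p = 0.0487, limma), a call lost in 11 of 14 alternatives, where 9.19% of all probe sets passed in either direction. Its values were 1.50 and 0.89 in hira roots, against 0.20 and 0.01 in WT roots. In hira protoplasts against hira roots 2 of 6 fell, with HTR12 at -1.29 and the H2B gene HTB2 at -1.89, and 12.2% of all probe sets fell. In WT protoplasts against WT roots 1 of 6 fell and 0 rose, with HTB2 at -2.85 (adjusted p = 0.00643, limma), and 13.9% of all probe sets fell. In hira the call was lost in 3 of 14 alternatives for HTR12 and in 4 for HTB2, among them each hira protoplast array left out. HTB2 was named after its values were seen. None of the 6 passed in hira against WT protoplasts, with a background of 8.29%, and HTB11 stood at -0.14, HTB4 at -0.37 and HTB1 at -0.13. The median core histone difference in roots was 0.18, against -0.004 over all probe sets.

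The abscisic acid and water deficit list, 50 loci and a rule on gene names, gave 11 measured genes. It was chosen with earlier results of these data known, so its counts beside all probe sets are a description and no independent test. In WT protoplasts against WT roots 5 of 11 rose and 0 fell, where 11.7% of all probe sets rose and 13.9% fell, and the median difference was 2.17, against 0.03 over all probe sets. In hira protoplasts against hira roots 4 of 11 rose and 1 fell, where 12.0% of all probe sets rose and 12.2% fell, with a median of 1.46, against -0.02 over all probe sets. In WT the sign of HIS1-3 was that of the list, while in hira it was opposite to the list median. In hira 6 of the 11 differences were positive. COR27, AT1G54410, COR15A, COR15B and LEA were negative there, as HIS1-3 was, and positive in WT. Of these, COR15A, COR15B and LEA hardly varied.

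LEA4-5, a late embryogenesis abundant protein made in drying cells, had 3.08 and 2.47 in hira protoplasts, against -3.15 and -3.41 in hira roots. In WT it had 5.23 and 4.19 in protoplasts, against -2.97 and -2.47 in roots. It rose by 6.05 in hira and by 7.43 in WT (adjusted p = 0.00230 in hira and 0.00154 in WT, limma). The unnamed locus AT3G02480 rose by 8.55 in hira and by 7.65 in WT. The dehydrin gene LTI30 rose by 2.49 in hira and by 2.55 in WT, and LEA18 by 1.80 in hira and 3.13 in WT. The LEA18 call in hira was lost in 6 of 14 alternatives, those that left out a root or hira protoplast array. These genes other than LTI30 were named after their values were seen, because they passed. All 4 were higher in protoplasts than in roots in both genotypes, unlike HIS1-3, which was lowest in WT roots and highest in hira roots.

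COR47, a dehydrin gene, had the hira minus WT root difference nearest in size to that of HIS1-3 among the list genes, while COR27 had the highest r with it, 0.74 against 0.54 for COR47. COR47 had -1.19 and -0.84 in hira roots, against -2.96 and -4.40 in WT roots. It was the 1 list member of 11 to pass in hira against WT roots, at 2.67 (SE 0.52, adjusted p = 0.0478, limma), a call lost in 10 of 14 alternatives, with 9.19% of all probe sets passing. COR47 had 1.16 and 0.84 in hira protoplasts, against 1.37 and 0.86 in WT protoplasts. It rose in WT protoplasts by 4.80 (adjusted p = 0.00542, limma), and the value in hira was 2.01 (adjusted p = 0.0524, limma). Unlike HIS1-3, COR47 was thus above the roots in the protoplasts of both genotypes.

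The dehydrin gene AT1G54410 was the list member that fell in hira protoplasts against hira roots (adjusted p = 0.0376, limma), a call lost in 7 of 14 alternatives. It had -0.74 and -1.01 in hira protoplasts, against 0.23 and 0.43 in hira roots. Its value in WT was 0.74 (adjusted p = 0.119), so its signs were those of HIS1-3. The cold-regulated gene COR27 likewise stood at -0.50 in hira and 1.11 in WT, and passed in neither. AT4G33905 stood at 1.46 in hira and 2.17 in WT without passing. COR15A, COR15B and the dehydrin gene LEA hardly varied, with root differences between hira and WT of at most 0.02 in size. In hira against WT protoplasts 0 of the 11 passed, with a background of 8.29%, and the median was -0.19, against -0.05 over all probe sets.

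Of the histone chaperone list, 3 of 17 loci were measured, and the HIRA transcript was not analysed here, so it offers no check on which plants were hira. The H3.3-associated remodeller ATRX ran against HIS1-3, with a Pearson r of -0.91 over the 8 arrays. ATRX had -0.92 and -1.11 in hira roots, against 0.76 and 0.96 in WT roots, a difference of -1.88 (SE 0.14, adjusted p = 0.00863, limma). This root call was lost in 1 of 14 alternatives, the root arrays alone, where no probe set passed. In hira against WT protoplasts ATRX stood at 0.24, the H3-H4 chaperone ASF1B at 1.32 and SGA2, a chaperone of the same kind, at -0.62, and 0 of the 3 passed, with a background of 8.29%. In hira protoplasts against hira roots ATRX rose by 1.09 and SGA2 by 0.68, and ASF1B fell by 1.56. In WT protoplasts against WT roots SGA2 rose by 1.44, while ATRX fell by 1.03 and ASF1B fell by 1.67. All 3 genes thus passed in both comparisons (limma, adjusted p under 0.05), where 24.2% of all probe sets passed in hira and 25.6% in WT. In hira the call was lost in 5 of 14 alternatives for ASF1B, 3 for SGA2 and 1 for ATRX. In WT it was lost in 6 for ASF1B, 0 for SGA2 and 1 for ATRX. The losses for ASF1B in both genotypes and for SGA2 in hira included each hira protoplast array left out.

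Likeness to HIS1-3 was measured as Pearson r over the 8 arrays, which share tissue and genotype within groups, so no p is given. An r of at least 0.9 was reached by 99 probe sets, and by 13 of those with an SD of at least 1. Named below are the 8 highest and 4 lowest of 358 such probe sets of genes with a symbol.

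Among these genes CCL, a CCR-like gene whose mRNA decays under control of the circadian clock, was most like HIS1-3, with r = 0.92. Its r was between 0.89 and 0.96 when any 1 array was left out. Over all probe sets with an SD of at least 1, with or without a symbol, CCL ranked 6th, and the highest r was 0.98. CCL had 0.11 and 0.89 in hira protoplasts, against -0.11 and -0.65 in WT protoplasts. In roots it had 0.93 and 3.05 in hira, against -0.54 and -1.78 in WT. Its hira arrays all lay above its WT arrays, and hira root replicate 2 was again the highest.

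The other 7 were the glutathione transferase gene GSTF4 (r = 0.87), the MADS-box gene AGL42 (0.85), the sucrose exporter gene SWEET11 (0.85), the glucosyltransferase genes UGT71C1 (0.82) and UGT73B1 (0.81), the beta-tubulin gene TUB1 (0.80) and the cytochrome P450 gene CYP71B23 (0.78). Their hira minus WT root differences ran from 2.03 for UGT73B1 to 3.65 for TUB1. In protoplasts the genes parted, from -0.58 for TUB1 to 2.12 for CYP71B23. Besides CCL, every hira array lay above every WT array for UGT73B1 and CYP71B23. SWEET11 had -0.34 and 4.74 in hira roots, and without replicate 2 its r was 0.75.

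Among the same genes with a symbol, the chloroplast protease gene NANA was the most opposite, with r = -0.95. The lowest r over all probe sets was -0.99. NANA had -0.53 and -0.23 in hira protoplasts, against 0.23 and 0.78 in WT protoplasts. It had -1.60 and -2.18 in hira roots, against 0.50 and 1.86 in WT roots. The peroxidase gene PRX52 (r = -0.84), the plastid ribosomal gene rpl20 (-0.83) and EXO (-0.83), a gene of brassinosteroid-promoted growth, followed. Each of the 4 was highest on average in WT roots, where HIS1-3 was lowest.

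**Figure D4:**
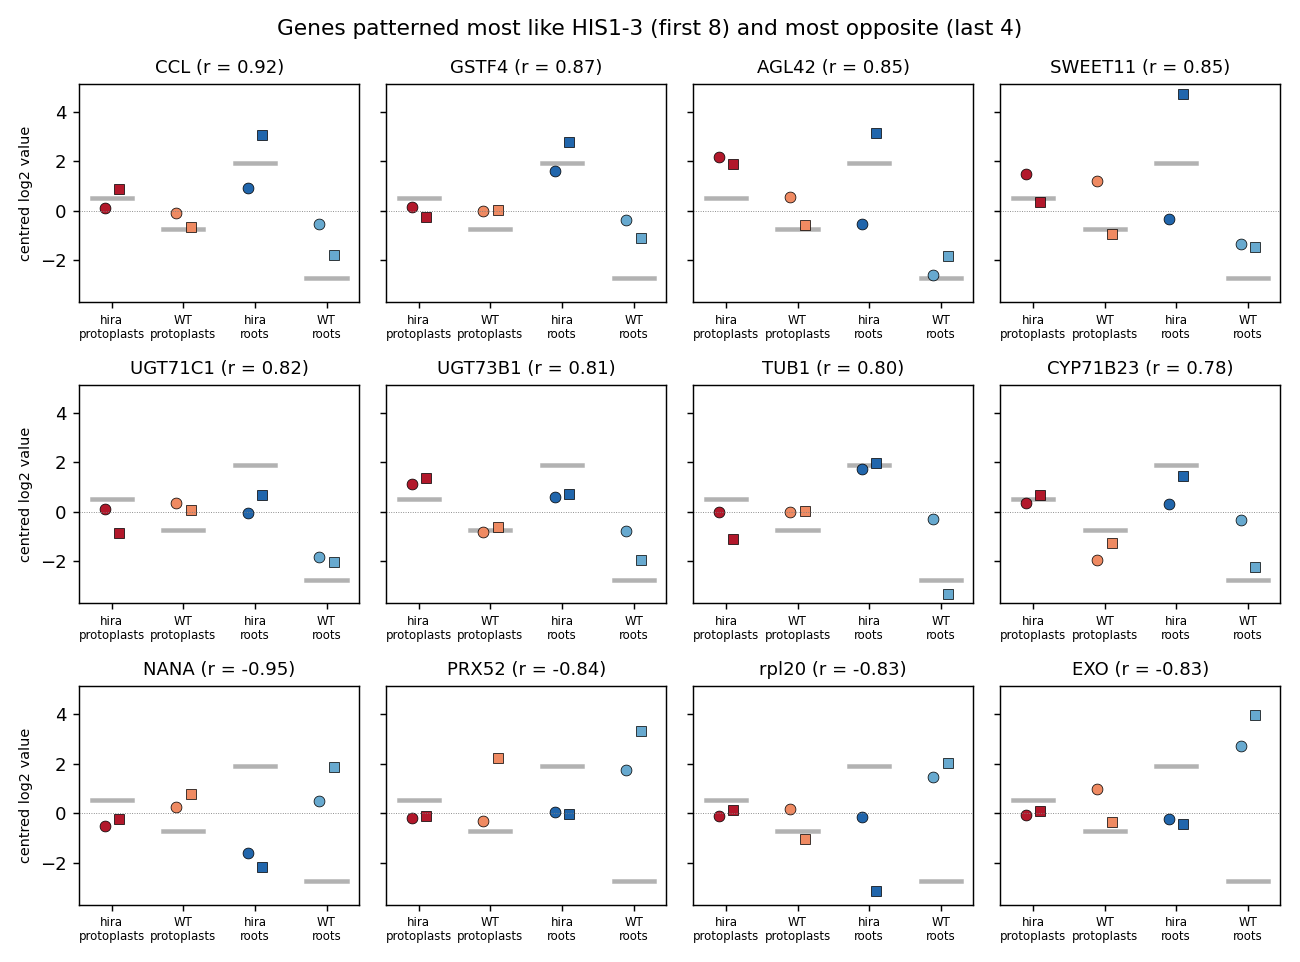
Centred log2 values (y axis) by group (x axis) of the 8 genes most like HIS1-3 and the 4 most opposite, with circles for replicate 1, squares for replicate 2 and grey lines for the group means of HIS1-3. Genes were drawn from the 358 probe sets with a gene symbol and an SD of at least 1. Among these CCL had the highest r with HIS1-3, 0.92, and NANA the lowest, -0.95.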

How the data were processed

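The deposited values were treated as log2 values. Per the submitters' processing notes the authors used GCRMA, a background correction and normalization of Affymetrix probe sets, with no version given, and neither the log base nor a genome build is stated there or in the labels. The median over the 8 arrays was 0 within rounding for every probe set, so the values as deposited are centred per probe set and keep no level. The number of arrays limits the precision. The members and gene lists were chosen with earlier results of these data known.

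The 64 control probe sets were set aside, which left 22746. The platform annotation gave 1 gene for 13513 probe sets, several for 503 and none for 8794, and 13436 of the single-gene probe sets matched a RefSeq gene. A limma 3.58.1 model in R 4.3.3 (lmFit, eBayes) took the 4 group means from the 8 arrays, with 4 residual and 0.742 prior degrees of freedom. Tests were two-sided, and a call needed an adjusted p (Benjamini-Hochberg, all probe sets) under 0.05. The fit was tested on simulated data. Named were HIS1-3, the 8 genes with the highest and 4 with the lowest r with it among genes with a symbol and an SD of at least 1, up to 8 members of each list, and up to 4 core histones. Alternatives were quantile normalization, centring on the least variable probe sets, trend and robust eBayes, a replicate block, an SD filter at 0.2, the 4 arrays compared alone, and each array left out. Coordinates and sequences were not used here.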

Additional observations from a re-analysis of the deposited data

Results flagged for a closer look

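HIS1-3 moved in opposite directions in the genotypes on every pair of arrays. Its protoplast minus root difference was -1.40 in hira and 1.99 in WT, which differ by -3.39, and this difference was not tested. The same held, untested, among the genes named for their likeness to HIS1-3 or their opposite pattern: GSTF4 with a hira minus WT difference of responses of -2.99, TUB1 with -4.23, rpl20 with 3.82 and EXO with 3.35. These were chosen on the same arrays.

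Among the list members, every array moved in opposite directions for AT1G54260 (difference of responses 0.84), AT1G72740 (0.35), AT1G54230 (-0.068) and AT1G54240 (-0.0919). HTB4 (-0.64), LEA (-0.0622) and AT1G54410 (-1.94) did the same. Of these, AT1G54230, AT1G54240 and LEA hardly varied at all, with SDs over the 8 arrays of 0.032, 0.037 and 0.027. ATRX had responses of 1.09 in hira and -1.03 in WT, a difference of 2.12. All these list members were picked by this pattern on the same arrays. Their differences of responses are therefore a description, and no test result is given. Of all probe sets, 24.7% were higher in protoplasts in WT and lower in hira on every pair of arrays, as HIS1-3 was. The reverse, as for rpl20, EXO, AT1G54260, AT1G72740 and ATRX, was seen for 3.1%.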

How the results depend on the processing

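The direction of all 5 HIS1-3 differences was the same under every alternative run. The difference in protoplasts stayed below the threshold in all 14, with values from 0.78 to 1.74. With each array left out in turn, the root difference ran from 3.87 to 5.44, the response in WT from 1.51 to 2.48, the response in hira from -2.19 to -0.61 and the difference of responses from -4.18 to -2.61. After quantile normalization the response in hira was -0.67. The cause was not tested.

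The replicate numbers share no stated source, and the deviations of same-numbered arrays correlated between -0.10 and 0.05. With the replicate block 789 probe sets were called in hira against WT protoplasts and 1030 in hira against WT roots, and the HIS1-3 difference in protoplasts was 1.26 (adjusted p = 0.339). In hira against WT protoplasts 1885 were called. The count was 4773 with trend and robust and 695 with those 4 arrays alone. With an array left out it ran from 139 to 1559. Leaving out hira protoplast replicate 1 gave 139 and replicate 2 gave 207, WT protoplast replicate 1 gave 855 and replicate 2 gave 905, and each hira root array gave 893. In hira against WT roots 2090 were called. The count was 1332 after quantile normalization, and limma called 0 with the root arrays alone, where 4548 had an unadjusted p under 0.05. It ran from 495 to 3085 with an array left out. Leaving out each hira protoplast array gave 495, WT root replicate 2 gave 1082 and hira root replicate 2 gave 1149. In hira protoplasts against hira roots 5505 were called, and between 1872 and 5628 with an array left out, where losing hira protoplast replicate 1 gave 2150 and replicate 2 gave 1872. In WT protoplasts against WT roots 5817 were called, 2331 with the WT arrays alone and between 3747 and 5377 with an array left out. Losing WT protoplast replicate 1 gave 3747, and losing each hira protoplast array gave 3877.

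Of the 8 genes most like HIS1-3, 6 were kept by Spearman rho and 8 by root mean square difference. Between 4 and 8 were kept with an array left out, 4 without either WT root array. Of the 4 most opposite, 0 stayed among the lowest 4 without hira root replicate 2, where r was -0.91 for NANA, -0.90 for PRX52, -0.86 for EXO and -0.71 for rpl20.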
